A study of Mus musculus with 6 samples.

Results

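The Kruppel-like factor (Klf) genes described here were Klf2, Klf3, Klf4, Klf5, Klf6, Klf7, Klf9, Klf10, Klf13 and Klf15, taken by symbol, 10 of the 24061 genes in a count table of mouse skin, and all 10 were among the 16371 genes with enough reads to test. Skin was taken on Day 14 from female C57BL/6 mice, 8 to 14 weeks of age, after daily intradermal injections into the shaved back. The rIL-31 group (3 libraries) received 20 µg of recombinant IL-31, an itch-associated cytokine made largely by T helper 2 cells, in 50 µl of saline. The saline group (3 libraries) received the same volume of saline, so that both groups carried the needle, the vehicle and the shaving. The comparison asks which transcripts differ in skin exposed to the cytokine. Whole skin holds epidermis, hair follicles, dermis, vessels, immune cells and attached muscle, and in such bulk samples a change in the number of cells of a type and a change in the RNA per cell cannot be told apart.

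Kruppel-like factors are transcription factors that bind GC boxes and CACCC boxes in DNA through a run of zinc fingers at the C-terminal end, and their N-terminal parts differ and recruit either coactivators or repressor complexes. In skin the family is best known for Klf4, which mice need to form the epidermal permeability barrier, and for Klf5, which marks proliferating basal keratinocytes. Several members are also induced within minutes to hours of a stimulus, by growth factors, injury, shear stress or glucocorticoids.

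The fingers are what the members share, and the coding sequence of the third finger is printed for the members that rose, with Klf9 beside them as a member of the branch that recruits SIN3 repressor complexes. The capitals mark the codons of the cysteine and histidine pairs that hold the zinc ion. The sequences were read from the mouse genome GRCm38.p6 with GENCODE M21 transcripts, at chr8:72320851-72320913 (plus strand, exon 3) for Klf2, chr4:55528131-55528193 (minus strand, exon 5) for Klf4, chr13:5866746-5867277 (plus strand, split over exons 3 and 4) for Klf6 and chr19:23164790-23164852 (plus strand, exon 2) for Klf9. Each is given 5′ to 3′ on the coding strand.
Klf2: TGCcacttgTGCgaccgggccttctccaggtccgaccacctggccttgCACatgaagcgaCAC
Klf4: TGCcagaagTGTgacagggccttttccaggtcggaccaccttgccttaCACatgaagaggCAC
Klf6: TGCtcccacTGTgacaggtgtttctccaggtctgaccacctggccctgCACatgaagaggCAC
Klf9: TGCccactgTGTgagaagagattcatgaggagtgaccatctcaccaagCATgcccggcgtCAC
Over the 81 codons that span all the fingers, the 45 pairs of members had 57.2% to 81.1% identical bases (median 64.2%). The closest pair was Klf6 and Klf7 at 81.1%, followed by Klf2 and Klf4 at 78.2%. The fingers stood almost at the end of the coding sequence in Klf2, Klf4, Klf6 and Klf7, with 1 codon after the last histidine, whereas 19 codons followed in Klf9, 29 in Klf10 and 39 in Klf13. No pair was near-identical over this stretch.

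The stretches before the gene starts of Klf2, Klf4 and Klf6 are shown because these genes moved together in the comparison. RefSeq's table for GRCm38.p6 held an entry for 8 of the 10 members, all but Klf5 and Klf10. The 250 bases before the start are printed 5′ to 3′ on the gene's strand, from chr8:72318812-72319061 (plus strand) for Klf2, chr4:55532476-55532725 (minus strand) for Klf4 and chr13:5861239-5861488 (plus strand) for Klf6. Capitals mark matches, on either strand, to the GC box GGGCGG, to CACCC or to the MEF2 motif.
Klf2: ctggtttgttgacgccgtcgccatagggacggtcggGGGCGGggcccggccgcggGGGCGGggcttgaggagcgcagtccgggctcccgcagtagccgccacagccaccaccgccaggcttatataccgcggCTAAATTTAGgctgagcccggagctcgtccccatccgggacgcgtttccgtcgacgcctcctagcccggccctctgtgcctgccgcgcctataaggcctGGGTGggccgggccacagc
Klf4: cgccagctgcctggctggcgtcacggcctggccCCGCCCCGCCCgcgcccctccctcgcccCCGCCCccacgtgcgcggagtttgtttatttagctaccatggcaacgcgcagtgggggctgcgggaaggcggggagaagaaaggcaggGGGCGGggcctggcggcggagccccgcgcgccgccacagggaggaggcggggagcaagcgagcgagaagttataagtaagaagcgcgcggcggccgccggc
Klf6: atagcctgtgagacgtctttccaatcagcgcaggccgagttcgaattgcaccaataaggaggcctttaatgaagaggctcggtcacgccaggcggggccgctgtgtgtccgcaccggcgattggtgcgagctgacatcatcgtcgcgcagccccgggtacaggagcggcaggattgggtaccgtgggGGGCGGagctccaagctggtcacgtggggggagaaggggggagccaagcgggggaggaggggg
A GC box was present in 7 of the 8 member windows and in 32.7% of all 32851 windows of that length, and CACCC in 6 of 8 and in 52.0%. The member windows were rich in G and C, at 59.2% to 78.4%, with a median of 52.4% over all windows. The MEF2 motif, bound by the MEF2 factors through which ERK5 signalling is known to induce Klf2 in endothelial cells, matched 1 member window, that of Klf2 at position -118 counted back from the gene start, and 2.92% of all windows. The EGR motif GCGNGGGCG, which overlaps the GC box, matched 4 of 8 and 4.7%. Neither the CRE TGACGTCA (1.55% of all windows) nor the SRF motif known as the CArG box (1.47%) matched any member window, while AP-1 (TGANTCA, 6.75% of all windows) and STAT (TTCNNNGAA, 7.02%) each matched that of Klf9 alone. These matches describe the letters of the windows, and no binding was measured.

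Depth was similar throughout, with 23122953 to 25552684 counts in the rIL-31 libraries and 21710679 to 23963685 in the saline libraries. Replicate 3 of the rIL-31 group stood apart from the other 2. Across 15213 genes with counts-per-million (CPM) averaging at least 1, the median coefficient of variation was 15.8% in the rIL-31 group and 9.64% in the saline group. When rIL-31 replicate 3 was left out, a false discovery rate (FDR) below 0.1 was reached by 2050 genes upward and 1968 downward in rIL-31 skin, against 739 and 610 with all 6 libraries, so each Klf result that turns on this library is given with and without it. A library's deviation from the mean followed the GC content of the transcripts to a differing degree, with rank correlations across genes of 0.383, 0.272 and -0.250 in rIL-31 replicates 1, 2 and 3, against -0.238 to -0.115 in the saline libraries. For that reason a fit with GC and length offsets per library is also given. By this measure rIL-31 replicate 3 was near the saline libraries. Without it, both rIL-31 libraries had positive correlations and all saline libraries negative ones. In fits that leave it out and use no offsets, the GC trend and the treatment therefore cannot be told apart. The samples are numbered in the labels with no statement on which mice they come from, and p-values here reflect variation among the libraries, which may be technical.

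Of the 10 Klf genes, 3 (Klf4, Klf6 and Klf2) rose in rIL-31 skin at an FDR below 0.1 by edgeR's quasi-likelihood test with Benjamini-Hochberg adjustment over all genes tested, 1.72-fold to 2.21-fold, and 7 did not pass. Among all genes tested, 8.24% passed this threshold, 4.51% higher and 3.73% lower. No Klf gene was lower at this threshold in limma-voom, or in edgeR with all 6 libraries and no block for the replicate number. With that block edgeR placed 1 lower, Klf9, against 1096 of all genes. DESeq2 placed 1 lower (Klf9) and 4 higher, the fourth being Klf3. Over all genes DESeq2 placed 1022 higher and 925 lower. At an unadjusted p below 0.05, 4 members were higher and 2 lower, against 10.3% of all genes higher and 9.27% lower. The median log2 fold change of the 10 was 0.07, with 5 positive and 5 negative values, against a median of 0.01 over all genes. The groups did not overlap for 5 members, Klf2, Klf3, Klf4, Klf5 and Klf6, each time with the rIL-31 libraries higher, a separation found for 25.7% of all genes in either direction and for 12.8% in this one. Only Klf2 passed the stricter rule of an FDR below 0.1 and a change over 2-fold, which 1.15% of all genes met upward.

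**Figure D1:**
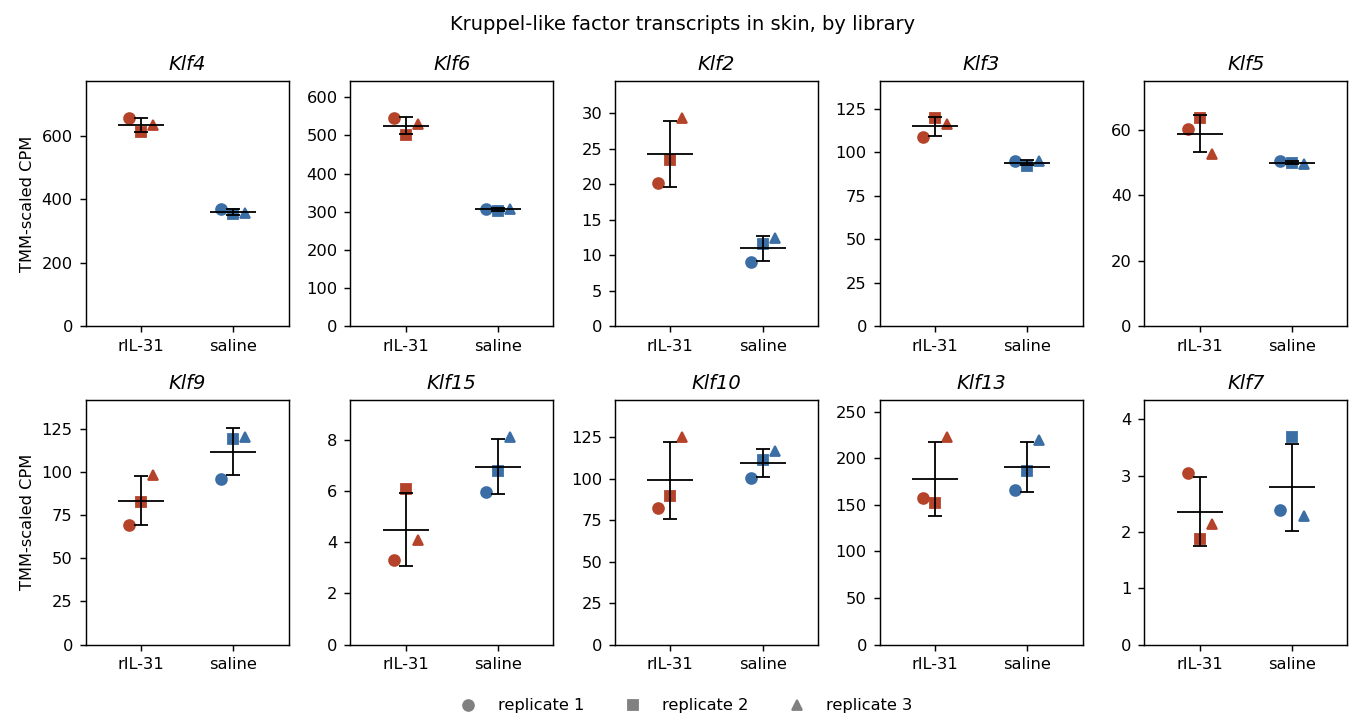
TMM-scaled counts-per-million (CPM, vertical axes, each from 0) of the 10 Klf genes in the 3 rIL-31 and the 3 saline libraries. Points are libraries, the long line is the mean and the bars 1 SD. The 3 rIL-31 libraries of Klf4 sit between 611 and 655 CPM, all above the saline libraries at 353 to 370.3, while the groups overlap in Klf9, Klf15, Klf10, Klf13 and Klf7.

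Klf4, on chr4:55527137-55532475 in GRCm38, encodes the factor that drives terminal differentiation of keratinocytes and that is also used to reprogram cells to pluripotency. It was measured at 655, 611 and 633 CPM in the rIL-31 libraries, against 370.3, 353 and 355 CPM in the saline libraries. The groups stood far apart, and the lowest rIL-31 library exceeded the highest saline library 1.65-fold. The means were 633 ± 21.7 CPM in rIL-31 skin and 359.5 ± 9.38 CPM in saline skin (SD, n = 3 each), a log2 fold change of 0.82 (SE 0.09, 95% interval 0.61 to 1.02, adjusted p = 0.000826). With GC and length offsets the change was 0.68 (adjusted p = 0.00156).

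Klf6, on chr13:5861489-5870393, encodes a widely expressed factor known for its rapid induction after tissue injury. Its levels were 545, 502 and 529.5 CPM in rIL-31 skin, against 308, 302 and 308 CPM in saline skin, again without overlap and with saline libraries that barely differed from each other. The log2 fold change was 0.78 (SE 0.09, 95% interval 0.57 to 0.99, adjusted p = 0.00109), and 0.90 with GC and length offsets (adjusted p = 0.000426). The GC content of the transcripts is 54.6% for Klf4 and 42.4% for Klf6, and the offsets moved the estimates of the pair in opposite directions, to 95% intervals of 0.49 to 0.88 for Klf4 and 0.69 to 1.11 for Klf6.

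Klf2, on chr8:72319062-72321654, encodes a factor induced by shear stress in endothelium, which also keeps naive T cells quiescent and circulating. It was the least abundant of the 3 in CPM and had the highest fold change of the 10. Its levels were 20.1, 23.3 and 29.2 CPM in rIL-31 skin, against 8.99, 11.5 and 12.4 CPM in saline skin. The groups did not overlap, with a factor of 1.62 between the lowest rIL-31 library and the highest saline library, but the spread within each group was wide, with coefficients of variation of 19.1% in rIL-31 skin and 16.1% in saline skin. The log2 fold change was 1.15 (SE 0.19, 95% interval 0.74 to 1.56, adjusted p = 0.00581). Its transcript has the highest GC content of the members, 61.6%, and with GC and length offsets the change was 1.05 (adjusted p = 0.0270), an estimate that missed the threshold when saline replicate 1 (0.93, adjusted p = 0.109) or saline replicate 2 (1.08, adjusted p = 0.117) was also left out, in fits chosen after the data were seen. Klf4 and Klf6 passed in all 6 of those fits.

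**Figure D2:**
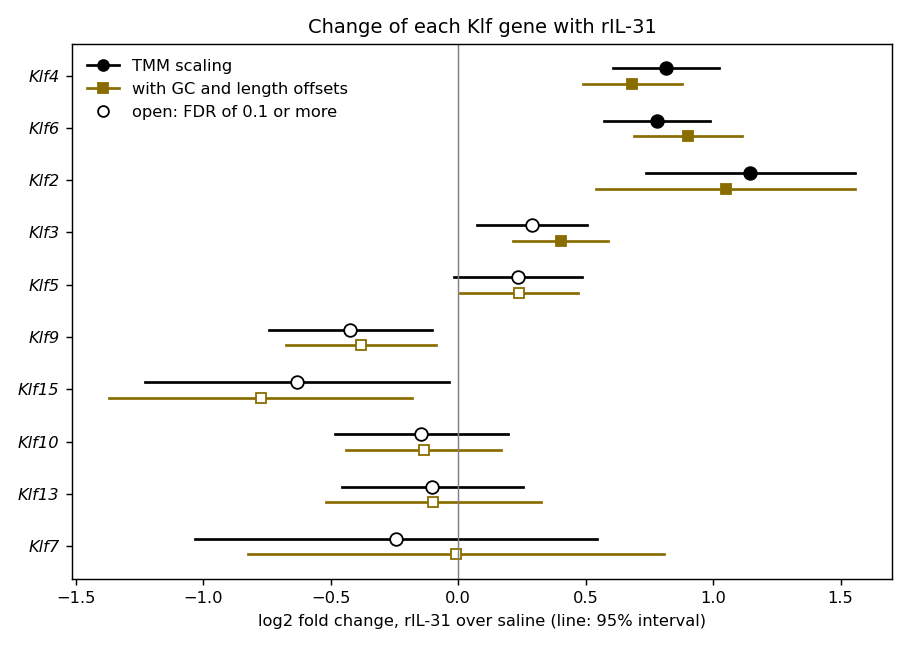
Log2 fold change of each Klf gene, rIL-31 over saline (horizontal axis), with its 95% interval, under TMM scaling (black circles) and with GC and length offsets (brown squares). Filled symbols have an FDR below 0.1. Klf4 (0.82), Klf6 (0.78) and Klf2 (1.15) are filled under both, Klf3 with the offsets alone, and Klf9, Klf15, Klf10, Klf13 and Klf7 in the lower rows have negative estimates with open symbols.

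Klf3 and Klf5 were separated between the groups by small differences. Klf3, on chr5:64803521-64832901, encodes a repressor that recruits CtBP corepressors, and it was measured at 109, 119.6 and 116 CPM in rIL-31 skin, against 94.8, 92.3 and 95.02 CPM in saline skin. Every rIL-31 library lay above every saline library, yet the log2 fold change of 0.29 (SE 0.10) did not pass (edgeR adjusted p = 0.127). It passed with GC and length offsets (0.40, adjusted p = 0.0219). A total of 404 exonic bases of Klf3 overlap Gm20033 on the opposite strand, and reads of the pair cannot be told apart where counting does not use strand.

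Klf5, on chr14:99298691-99313412, encodes the factor of proliferating basal epidermal cells and intestinal crypts. Its levels were 60.2, 63.4 and 52.6 CPM in rIL-31 skin, against 50.4, 49.8 and 49.6 CPM in saline skin. The saline libraries were within 1 CPM of each other, the third rIL-31 library lay just above them, and the log2 fold change was 0.23 (95% interval -0.02 to 0.48, edgeR adjusted p = 0.287). Without rIL-31 replicate 3 both Klf3 (0.28) and Klf5 (0.31) passed, at adjusted p = 0.0612 and 0.0573.

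Klf9, Klf10 and Klf13, of the branch that recruits SIN3 and histone deacetylases, all had negative estimates. None passed in edgeR with all 6 libraries and no replicate block. Klf9, on chr19:23141226-23168129, is a direct glucocorticoid receptor target and was measured at 69.6, 82.9 and 98.2 CPM in rIL-31 skin, against 96.3, 119 and 120.5 CPM in saline skin. The groups overlapped by 1 library, since the highest rIL-31 value was just above the lowest saline value. The log2 fold change was -0.42 (SE 0.14, 95% interval -0.74 to -0.10, edgeR adjusted p = 0.131), DESeq2 gave an adjusted p of 0.0777, and without rIL-31 replicate 3 the edgeR estimate was -0.56 (adjusted p = 0.0125). With a replicate block and all 6 libraries the edgeR estimate was -0.43 (adjusted p = 0.0192).

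Klf10, on chr15:38291464-38300711, encodes a repressor induced early by TGF-beta. It was measured at 82.1, 89.6 and 125 CPM in rIL-31 skin, against 100.4, 111 and 117 CPM in saline skin. Replicate 3 was above all saline libraries and the other 2 rIL-31 libraries below them, so the log2 fold change of -0.14 (edgeR adjusted p = 0.672) became -0.35 (adjusted p = 0.0384) without that library. Klf13, on chr7:63886351-63938915, encodes a factor known from late activation of the chemokine gene Ccl5 in T cells, and had 158, 152 and 223 CPM in rIL-31 skin, against 166, 186 and 219 CPM in saline skin. There too the groups overlapped because of replicate 3, with a log2 fold change of -0.10 (95% interval -0.46 to 0.26, edgeR adjusted p = 0.792). Without that library the log2 fold change of Klf13 was -0.30 (adjusted p = 0.107), and -0.37 with GC and length offsets as well (adjusted p = 0.0899).

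Klf15 and Klf7 were near the bottom of the range. Klf15, on chr6:90461043-90491803, encodes a glucocorticoid-inducible regulator of glucose and amino acid metabolism in liver, muscle and fat, and had 78, 145 and 105 counts in the rIL-31 libraries, against 142, 156 and 174 counts in the saline libraries. In CPM these were 3.30, 6.06 and 4.08 in rIL-31 skin, against 5.97, 6.77 and 8.11 in saline skin. A single rIL-31 library, the second, reached into the saline range, and the log2 fold change of -0.63 (SE 0.27, 95% interval -1.23 to -0.04) did not pass (edgeR adjusted p = 0.224). With both a replicate block and GC and length offsets the estimate was -0.80 and passed (edgeR adjusted p = 0.0679).

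Klf7, on chr1:64029448-64122345, known from neuron outgrowth, had 72, 45 and 55 counts in rIL-31 skin, against 57, 85 and 49 counts in saline skin. The groups were intermixed. Its log2 fold change of -0.24 had a 95% interval of -1.03 to 0.54, the widest of the 10, which takes in values of either sign. Exons of Klf7 overlap 2815 bases of Gm26649 on the opposite strand.

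**Figure D3:**
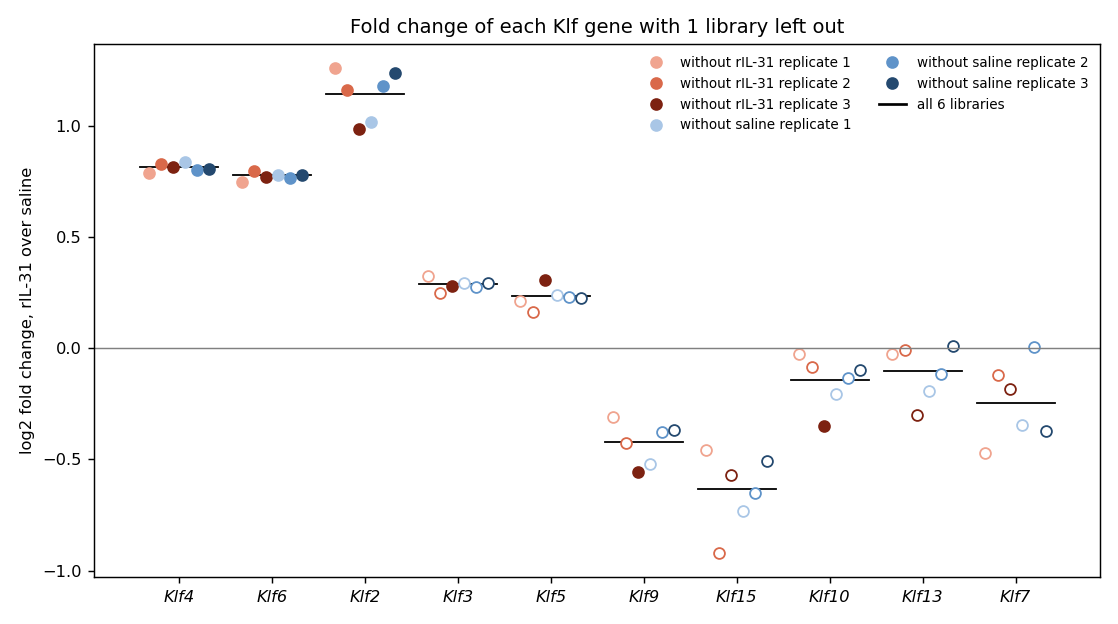
Log2 fold change of each Klf gene (vertical axis, rIL-31 over saline) when 1 library is left out, 1 point per fit, with a horizontal line for all 6 libraries. Filled points have an FDR below 0.1. Klf4 (0.79 to 0.84), Klf6 (0.75 to 0.80) and Klf2 (0.99 to 1.26) are filled in every fit, while Klf3, Klf5, Klf9 and Klf10 are filled in the fit without rIL-31 replicate 3 alone.

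Leaving out each library in turn kept the calls of Klf4, Klf6 and Klf2 in all 6 fits. The log2 fold change of Klf4 was 0.79 to 0.84 over these fits, that of Klf6 0.75 to 0.80 and that of Klf2 0.99 to 1.26. The largest adjusted p was 0.0156 for Klf4, 0.0199 for Klf6 and 0.0401 for Klf2. Klf4, Klf6 and Klf3 varied least among the rIL-31 libraries, with coefficients of variation of 3.43%, 4.15% and 4.70%, and Klf10 (23.2%), Klf13 (22.3%), Klf7 (26.02%) and Klf15 (31.7%) most. In saline skin Klf5 had the smallest coefficient, 0.884%, and Klf7 the largest, 28.0%.

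Levels were compared between genes per transcript length, as RPKM, which is the CPM divided by the length in kilobases of the longest GENCODE transcript. Klf4 was the highest Klf transcript in both groups, at 209 RPKM in rIL-31 skin and 119 RPKM in saline skin, followed by Klf6 at 124 RPKM in rIL-31 skin and 72.5 RPKM in saline skin. Both stood clear of the rest. Klf10 came next at 32.5 RPKM in rIL-31 skin and 35.9 RPKM in saline skin, and its libraries overlapped those of Klf13 in each group (27.7 RPKM in rIL-31 skin and 29.7 RPKM in saline skin). In rIL-31 skin Klf3 (22.0 RPKM), Klf9 (18.6 RPKM), Klf5 (17.5 RPKM) and Klf2 (13.1 RPKM) formed a run in which each overlapped its neighbour. In saline skin Klf9 (25.0 RPKM, overlapping Klf13), Klf3 (18.0 RPKM), Klf5 (14.9 RPKM) and Klf2 (5.94 RPKM) were in that order, with the last 3 apart from each other. Klf15 (1.81 RPKM in rIL-31 skin and 2.80 RPKM in saline skin) and Klf7 (0.307 RPKM in rIL-31 skin and 0.364 RPKM in saline skin) were lowest.

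The summed level of the 10 transcripts was 464, 449 and 488 RPKM in the rIL-31 libraries, against 316, 322 and 333 RPKM in the saline libraries, without overlap. Klf4 made up 44.8% of this sum in rIL-31 skin and 36.7% in saline skin, and Klf6 26.6% in rIL-31 skin and 22.4% in saline skin. The share of Klf9 was 3.98% in rIL-31 skin and 7.70% in saline skin, that of Klf10 6.93% in rIL-31 skin and 11.1% in saline skin, and that of Klf13 5.91% in rIL-31 skin and 9.17% in saline skin. These are shares of a sum that Klf4 and Klf6 dominate, so a share can differ where a gene's own level does not.

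**Figure D4:**
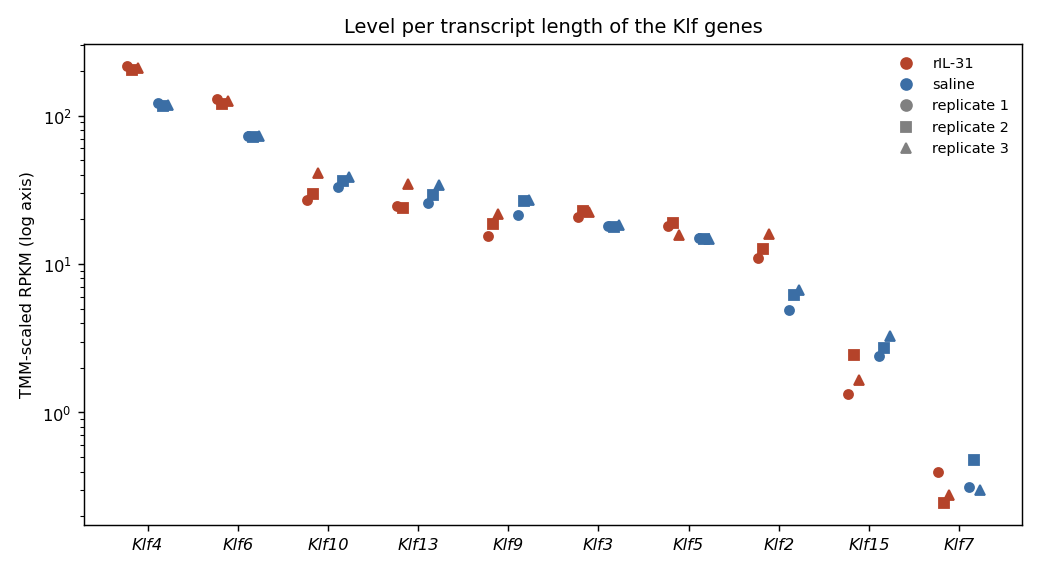
Level per transcript length of the 10 Klf genes (TMM-scaled RPKM, log axis), 1 point per library, rIL-31 in red to the left of saline in blue. Klf4 (209 RPKM in rIL-31 skin and 119 in saline skin) and Klf6 lie above all others in both groups, and Klf15 and Klf7 below all others.

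The other 16 genes of the Klf and Sp families, whose fingers are alike, included 9 with enough reads to test. By edgeR none was higher, also at an unadjusted p below 0.05 and by DESeq2 and limma-voom, and 1, Sp4, was lower, against 5 at an unadjusted p below 0.05, 2 by DESeq2 and 1 by limma-voom. The median log2 fold change of the 9 was -0.31, and -0.13 with GC and length offsets. Over all genes, 3.73% were lower by edgeR, and 9.27% at an unadjusted p below 0.05. Sp4, a GC box activator best known from neurons, fell to 8.55, 8.61 and 9.76 CPM in rIL-31 skin, against 13.5, 16.9 and 16.9 CPM in saline skin, without overlap (log2 fold change -0.81, SE 0.17, edgeR adjusted p = 0.0200). It did not pass without saline replicate 2 or 3, where the adjusted p reached 0.136.

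The remaining tested relatives did not pass in edgeR with all 6 libraries unless a replicate block was added. With the block Klf11 (edgeR adjusted p = 0.0583) and Sp6 (edgeR adjusted p = 0.0720) passed as lower. Klf11 passed in DESeq2 (adjusted p = 0.0987), and Sp1 (-0.41, adjusted p = 0.0153) and Sp6 (-0.41, adjusted p = 0.0210) passed in edgeR without rIL-31 replicate 3. With GC and length offsets and all 6 libraries, Sp1 was -0.07 (edgeR adjusted p = 0.727) and Sp6 was -0.45 (edgeR adjusted p = 0.122). In 4 of the remaining relatives all rIL-31 libraries lay below all saline libraries, a separation found for 12.9% of all genes in that direction. Klf11, which like Klf10 is a TGF-beta-inducible repressor, had 25.2, 23.3 and 17.7 CPM in rIL-31 skin, against 32.2, 28.1 and 29.0 CPM in saline skin (log2 fold change -0.43, edgeR adjusted p = 0.148). Klf12, a CtBP-recruiting repressor, had 2.37, 3.47 and 2.88 CPM in rIL-31 skin, against 4.16, 4.90 and 5.32 CPM in saline skin (-0.72, edgeR adjusted p = 0.172). Sp1, the ubiquitous GC box activator, averaged 123 ± 16.6 CPM in rIL-31 skin and 151 ± 2.97 CPM in saline skin (SD, n = 3 each; -0.31, edgeR adjusted p = 0.174). Sp6, which is needed for hair and tooth development in mice, averaged 65.6 ± 6.62 CPM in rIL-31 skin and 82.4 ± 5.81 CPM in saline skin (-0.33, edgeR adjusted p = 0.141), and 3329 of its exonic bases overlap Gm11532 on the opposite strand.

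Klf8 (log2 fold change 0.01), Klf16 (0.02), Sp2 (0.10) and Sp3 (0.06) were intermixed between the groups, and their signs turned under some settings. Klf1, Klf14, Sp5, Sp7, Sp8 and Sp9 had too few reads to test, and Klf17 had 0 counts in all 6 libraries.

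The partners through which the factors act and the enzymes that degrade them are given next. Of 11 corepressor and coactivator genes (Ctbp1, Ctbp2, Sin3a, Sin3b, Hdac1, Hdac2, Hdac3, Ep300, Crebbp, Kat2b and Kat5), none passed in edgeR in either direction, with 1 at an unadjusted p below 0.05, lower. Over all genes, 4.51% were higher and 3.73% lower in edgeR, and 9.27% were lower at an unadjusted p below 0.05. DESeq2 placed 1, Ctbp2, below the threshold, as did edgeR with GC and length offsets (adjusted p = 0.0932), and the median log2 fold change was -0.05. Without rIL-31 replicate 3, Hdac1 was higher and Ctbp2, Sin3a and Kat2b were lower at an FDR below 0.1. That fit placed 2050 of the 16670 genes it tested higher and 1968 lower. With GC and length offsets and all 6 libraries, Hdac1 (0.20, edgeR adjusted p = 0.504), Sin3a (-0.12, edgeR adjusted p = 0.683) and Kat2b (-0.21, edgeR adjusted p = 0.404) did not pass. Of 8 ubiquitin ligase genes known to act on KLF proteins, such as Wwp1 and Fbxw7, none passed in edgeR, DESeq2 or limma-voom, and none had an unadjusted p below 0.05 (median -0.14). Without rIL-31 replicate 3, edgeR placed 3 of the 8 lower, Wwp1, Smurf2 and Itch. With GC and length offsets and all 6 libraries none of the 8 passed, and Wwp1 was at -0.02, Smurf2 at -0.18 and Itch at 0.0004. Among 7 genes of the ERK5 and MEF2 route upstream of Klf2, 6 did not pass in edgeR, among them Map3k3 (0.006, adjusted p = 0.988). The 1 that passed was Map3k2, a kinase at the head of the route. It was lower, at 84.4 ± 4.82 CPM in rIL-31 skin and 109 ± 4.55 CPM in saline skin (SD, n = 3 each), with a log2 fold change of -0.38 (edgeR adjusted p = 0.0615). With GC and length offsets it was -0.01 (adjusted p = 0.978), and it passed in 1 of 6 fits with a library left out, that without rIL-31 replicate 3, where 1 gene of the route was higher and 2 were lower.

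Of 7 genes known to lie downstream of KLF2 in endothelium or lymphocytes, 4 rose and none fell in edgeR, with a median log2 fold change of 0.36. Over all genes tested, 4.51% were higher and 3.73% lower. The list does not separate genes that KLF2 raises from genes that it lowers. Thbd, the anticoagulant receptor thrombomodulin, had 77.6, 83.1 and 81.9 CPM in rIL-31 skin, against 49.3, 50.2 and 53.5 CPM in saline skin (log2 fold change 0.67, edgeR adjusted p = 0.00447). Its groups did not overlap, and it passed whichever library was left out. Nppc, the vessel-relaxing C-type natriuretic peptide (1.40, edgeR adjusted p = 0.0536), Aqp1, a water channel (0.36, edgeR adjusted p = 0.0761), and Itgb7, an integrin chain of lymphocytes, passed with all 6 libraries but in no more than 2 of 6 fits with a library left out. The count of 4 higher genes was unchanged without rIL-31 replicate 3, and was 2 without saline replicate 2 and 1 without any other single library. With GC and length offsets 2 of the 7 passed. The other members, the nitric oxide synthase gene Nos3 (0.12), the sphingosine-1-phosphate receptor gene S1pr1 (0.15) and the endothelin gene Edn1 (-0.04), did not pass.

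Glucocorticoids are known to induce Klf9 and Klf15, so the receptor and its direct targets are given as well. Of these 7 genes, 3 rose and none fell in edgeR, against 4.51% of all genes higher and 3.73% lower. The median log2 fold change of the 7 was 0.46. DESeq2 placed 4 of them higher and 1, the receptor gene Nr3c1, lower (adjusted p = 0.0922). Sgk1, a salt- and stress-regulated kinase, averaged 351 ± 40.4 CPM in rIL-31 skin and 219 ± 6.16 CPM in saline skin (SD, n = 3 each; log2 fold change 0.68, edgeR adjusted p = 0.00580). Per1, of the circadian clock, averaged 142 ± 19.2 CPM in rIL-31 skin and 87.7 ± 7.43 CPM in saline skin (0.70, edgeR adjusted p = 0.0107), and Errfi1, an inhibitor of EGF receptor signalling, came next (0.46, edgeR adjusted p = 0.0603) but passed in only 2 of 6 fits with a library left out. Without rIL-31 replicate 3, 4 of the 7 were higher and 1 lower. Tsc22d3 (-0.04) and Fkbp5 (-0.21), targets as well known, did not pass, nor did Nr3c1 in edgeR (-0.43, adjusted p = 0.153).

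Klf2, Klf4, Klf6 and Klf10 are counted among the early response genes in many cell types, and other early response genes moved in these libraries. Of 17 immediate early genes, 16 rose and none fell, 9 of them over 2-fold, with a median log2 fold change of 1.07. Among all genes, 4.51% were higher, 1.15% were higher by over 2-fold, and 3.73% were lower. Fosb had 898, 916 and 733 CPM in rIL-31 skin, against 139, 135 and 140.0 CPM in saline skin (log2 fold change 2.62, edgeR adjusted p = 5.16e-06). The summed level of the 17 genes was 3440 to 3716 CPM in the rIL-31 libraries and 1300 to 1328 CPM in the saline libraries. Of 10 heat shock genes, 4 rose and none fell (median 0.25), led by the chaperone gene Dnajb1 at 0.88. Of the heat shock genes, 5 were higher without rIL-31 replicate 3, 1 without saline replicate 2 and 2 without any other single library, while 13 to 17 immediate early genes were higher with a library left out. The part of these genes in the Klf result was not tested. How long after the last injection the skin was taken is not given in the sources used here.

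**Figure D5:**
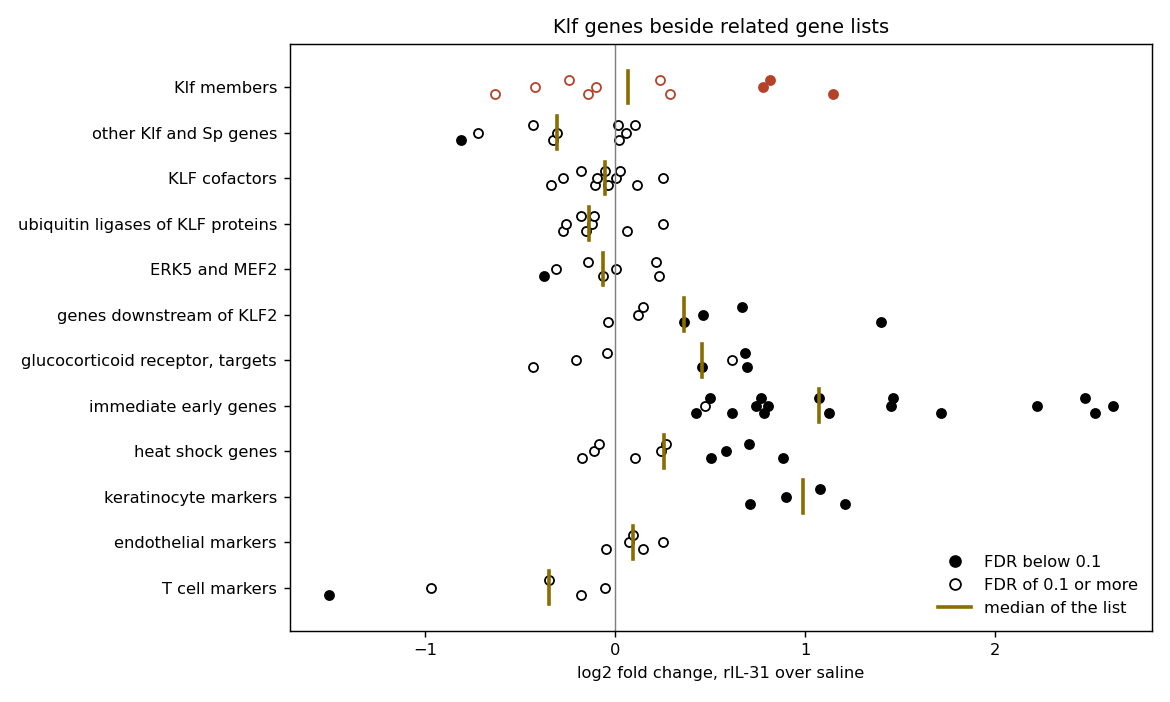
Log2 fold change (horizontal axis, rIL-31 over saline) of the tested genes in the Klf group (top row) and in related gene lists, 1 point per gene, filled where the FDR is below 0.1, with a bar at each list's median. The Klf row spreads from -0.63 (Klf15) to 1.15 (Klf2) around a median of 0.07, the other Klf and Sp genes have a median of -0.31, and the immediate early genes a median of 1.07. Values are from the fit without GC and length offsets.

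Markers of the cells that express these factors moved unevenly. All 4 keratinocyte markers, Krt5, Krt14, Krt1 and Krt10, rose (median log2 fold change 0.99). Their summed level was 10901 to 14932 CPM in the rIL-31 libraries and 6823 to 7508 CPM in the saline libraries. Over all genes, 4.51% were higher and 3.73% lower in edgeR. None of the 5 endothelial markers passed in edgeR, DESeq2 or limma-voom, nor had any an unadjusted p below 0.05 (median 0.09), and their sum was 139.8 to 179.8 CPM in rIL-31 skin and 140.0 to 160.2 CPM in saline skin. Of 5 T cell markers, Cd4 fell (-1.51, edgeR adjusted p = 0.00999), and their sum was 16.3 to 19.6 CPM in rIL-31 skin and 20.5 to 25.5 CPM in saline skin. That sum includes Cd4 itself, which averaged 1.89 CPM in rIL-31 skin and 5.37 CPM in saline skin. The other 4 did not pass, with Cd3e at -0.05, Cd3g at -0.18, Cd3d at -0.35 and Cd8a at -0.97. Of 4 skeletal muscle markers, Myh4 fell (-1.31, edgeR adjusted p = 0.0247), with a sum of 2412 to 2930 CPM in rIL-31 skin and 3373 to 3621 CPM in saline skin. That sum includes Myh4 itself, which averaged 316 CPM in rIL-31 skin and 784 CPM in saline skin. The other 3 did not pass, with Acta1 at -0.10, Ckm at -0.17 and Tnnt3 at -0.24. None of the 4 markers each of adipocytes (median 0.02), fibroblasts (0.01) and macrophages (-0.02) passed in these tools or had an unadjusted p below 0.05. Of 4 globin genes, 2 fell in edgeR, against 4 in DESeq2 and with GC and length offsets. The globin count was 0 without saline replicate 2 or saline replicate 3, 1 without rIL-31 replicate 2, 3 without rIL-31 replicate 1 and 4 without rIL-31 replicate 3. Hba-a1 and Hba-a2 had identical counts in all 6 libraries, so they are 1 measurement under 2 names. Each globin count of 3 or 4 takes in both. No marker of these lists was at 0 in any library. The part of these cells in the Klf results was not tested.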

How the data were processed

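The deposited table held whole-number counts per gene for the 6 skin libraries (3 rIL-31 and 3 saline), made by the authors from reads of Illumina HiSeq runs of total RNA. Per the labels and the submitters' processing notes, CASAVA 1.8, TopHat, DESeq and the mm10 build were involved. Which program and annotation were used for counting, and whether strand was used, is not given in the sources used here. A blank gene name was on 85 of the 24061 genes. They were kept in the totals, where they took 0.913% to 2.84% of counts in rIL-31 libraries and 4.74% to 6.03% in saline libraries.

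Here the counts were filtered with filterByExpr (minimum count 10), scaled by TMM and tested with edgeR 4.0.16 (quasi-likelihood F-test, R 4.3.3) with Benjamini-Hochberg adjustment over 16371 genes, at an FDR below 0.1. DESeq2 1.42.0, limma-voom (limma 3.58.1), RLE factors, library size alone, a minimum of 10 counts in all libraries, no filter, a replicate block, GC and length offsets (lowess, span 0.3, prior count 2, for the 94.2% of tested genes with a transcript in GENCODE M21) and each library left out were the alternatives. The code was tested on simulated data. No library pair was alike to within counting noise. Counts carry no molecular identifiers. Columns not mapped to a sample: 0.

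The Klf members and all gene lists were chosen with earlier results of these data known. Named genes were all Klf and Sp genes and the 3 of each other list with the smallest p, and any other gene of a list was named after its values were seen. An item of the list downstream of KLF2 is not reported here and was left out of its counts.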

Additional observations from a re-analysis of the deposited data

How the results depend on the processing

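The direction and the call of Klf2, Klf4 and Klf6 were the same under all 9 alternatives with 6 libraries. They were also the same in all 6 fits with a library left out. With the offsets and a library left out, Klf4 and Klf6 passed in all 6 fits and Klf2 in 4. Klf3, Klf5, Klf9, Klf10 and Klf15 each passed in at least 1 of all these fits. Klf13 passed only in 1 fit with the offsets and a library left out, and Klf7 in none. Of the Klf genes, 1 was higher when a change over 2-fold was also required, and 2 to 5 were higher with a library left out, the GC and length offsets included. DESeq2 placed 1 Klf gene and 2 other Klf and Sp genes lower, and 925 of all genes lower. With a library left out and no offsets, 0 to 2 Klf genes and 0 to 3 of the other Klf and Sp genes were lower. Over all genes, 246 to 2050 were higher and 171 to 1968 lower in those fits. With the offsets as well, up to 3 Klf genes were lower. The highest counts came without rIL-31 replicate 3 and the lowest without saline replicate 2, and the cause was not tested.

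The labels give no pairing of the numbered libraries. Same-numbered libraries deviated together with correlations of 0.08, -0.02 and 0.22, and rIL-31 replicate 2 went best with saline replicate 1 (0.15). With 3 libraries per group, these correlations cannot decide whether same-numbered libraries share more than a number. A replicate block gave 1 Klf gene (Klf9) and 3 other Klf and Sp genes (Klf11, Sp4 and Sp6) lower, and 1177 higher and 1096 lower over all genes. The block with GC and length offsets gave 2 Klf genes (Klf9 and Klf15) and the same 3 others lower, and 1284 higher and 797 lower over all genes.

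The genes whose sign turned under a setting were not called with all 6 libraries. Klf16 (-0.13) and Sp2 (-0.047) turned with the GC and length offsets, by the same amounts with the block added (-0.13 and -0.047), and Sp3 turned with limma-voom (-0.0055) and with the block (-0.0085). With a library left out, the log2 fold change was -0.47 to 0.0073 for Klf7, -0.30 to 0.011 for Klf13, -0.13 to 0.25 for Klf8, -0.039 to 0.069 for Klf16, -0.034 to 0.20 for Sp2 and -0.34 to 0.26 for Sp3. With the offsets and a library left out, Klf7 turned to 0.128 without rIL-31 replicate 2, 0.106 without rIL-31 replicate 3 and 0.246 without saline replicate 2, and Klf13 to 0.0365 without rIL-31 replicate 2 and 0.0370 without saline replicate 3. The scaling alternatives moved the median of all genes by less than 0.1. Klf7 and Klf15 are limited by counts under 200 per library.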
